A study of Oryza sativa with 12 samples.

Results

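The abscission zone (AZ) and the remaining pedicel (NAZ, nonabscission zone) of W517, a rice cultivar that shatters easily, were compared across genes. The genes were those with at least 0.5 FPKM (fragments of a gene per kilobase of its length, relative to the reads of the library) in at least 3 of the 6 W517 libraries, which left 21485 of the 35851 genes measured. W517 is given as wild type (WT), and so is DZ129, a cultivar that has lost shattering and is used here only to show where W517 differs. Both were grown in the field. The AZ was cut as a piece shorter than 2 mm and the NAZ was what was left of the pedicel. Pedicels were sampled on day 10, counted from flowering in the sample labels and from heading in the methods of the study. Each of the 4 groups (W517AZ, W517NAZ, DZ129AZ and DZ129NAZ) had 3 libraries of polyadenylated RNA, made with a stranded kit. What a library was made from, such as single plants or pooled pedicels, is not given in the sources used here, so the p-values measure the spread between these libraries, which may be technical.

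The abscission zone of rice is a thin plate of small cells between the spikelet and the pedicel. At maturity the walls between its cells are loosened and the grain is shed, and how far the plate is crossed by lignified walls helps to set how easily this happens. The pedicel below it is a green stalk with vascular strands that carry sugars and amino acids to the filling grain, whose endosperm stores starch, glutelins and prolamins. Because the AZ lies directly beneath the spikelet, the piece cut out can touch tissue of the grain side.

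Depth was even over the 12 libraries, from 17118470 to 20892582 reads on genes, and the W517NAZ libraries were the shallowest group at 17118470 to 18008559. Across genes, replicate libraries of W517 correlated at r = 0.989 to 0.991 on the log2 scale, and every pair differed by more than counting noise, with a chi-square of 1.77 to 3.94 per gene. The 6 libraries were counted as 6 samples, although this spread may be technical. Actin, LOC_Os01g71770, differed by -0.19 ± 0.05 (log2 AZ minus NAZ, standard error) and was not called.

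Many genes differed between the AZ and the NAZ, and more were higher than lower in the AZ. With limma on log2(FPKM + 0.1), a gene was called where its fold change exceeded 2 and its adjusted p was below 0.05. By this rule 4708 genes rose in the AZ, 21.9% of those tested, and 2858 fell, 13.3%, so that 35.2% were called. The median difference of the genes that rose was 2.09 on the log2 scale, and that of the genes that fell was -1.56. Beyond 3 on the log2 scale, there were 931 genes that rose and 147 that fell. The 3 AZ and the 3 NAZ libraries did not overlap for 78.4% of all genes tested, so a lack of overlap by itself says little here. In these pieces of tissue, fewer cells of a type and less RNA per cell cannot be told apart.

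The excess of higher calls lay among genes of low level and moved with the scaling. Among genes at 1 to 10 FPKM in the tissue where they were higher, 41.4% of 8636 were called, and 75.0% of the calls were higher in the AZ. Among the 1128 genes at 100 to 1000 FPKM, 48.0% were called, and only 36.2% of those were higher in the AZ. The median of all genes tested lay at 0.13 on the log2 scale. It lay at 0.01 after median-ratio scaling and at -0.01 after quantile normalization, and the share of higher calls went from 62.2% to 57.3% and to 49.1%. The values below are on the scale of the deposited FPKM.

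**Figure D1:**
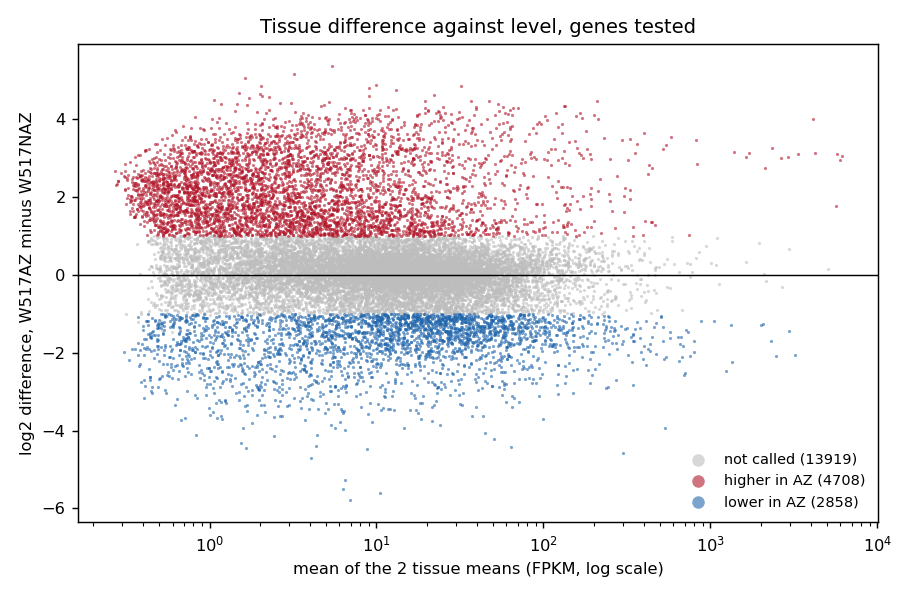
Each point is 1 of the 21485 genes, by the mean of its levels in the 2 tissues (FPKM, log axis) and its log2 difference between W517AZ and W517NAZ; red marks the 4708 genes called higher in the AZ, blue the 2858 called lower and grey the rest. The red points crowd at low levels, where 75.0% of the calls at 1 to 10 FPKM are higher.

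Names were available for few of these genes. A product table of the study, of which 1160 loci could be read, held 845 loci that met the expression rule. The study had put loci into it for being called in this very contrast and between the AZs of both cultivars but not between the tissues of DZ129. That 512 of the 845 were higher in the AZ and 281 lower therefore follows from how the table was made, and the groups below show which products it holds in each direction rather than independent evidence of a direction. The counts of each group are to be read beside these counts of the whole table. Another 32 loci outside the table were paired with a name by gene lines quoted in it. Of the 7566 called genes, 7034 had no name.

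Among annotated genes of at least 10 FPKM, the highest in the AZ relative to the NAZ was RBBI3.3 (LOC_Os01g03360), a Bowman-Birk type inhibitor of serine proteases. Its FPKM were 101, 98.9 and 89.9 in the AZ libraries and 5.72, 4.92 and 6.03 in the NAZ libraries. The groups lay far apart, and the difference was 4.10 ± 0.08 on the log2 scale (adjusted p = 6.88e-11, limma). DAO (LOC_Os04g39980), a dioxygenase that inactivates the hormone auxin by oxidation in rice, stood at 103, 92.8 and 93.7 FPKM in the AZ and at 6.96, 6.58 and 7.41 in the NAZ. That was 13.6-fold higher on the scale with the pseudocount (3.77 ± 0.06, adjusted p = 3.19e-11, limma). Neither gene is in the product table, and both were also called higher in the AZ of DZ129, by 5.31 and 2.38. LOC_Os03g11370, paired only with the identifier Os03g0212300, was 3.89 higher in W517 and 3.79 higher in DZ129.

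The other 7 of the 10 highest were 6 prolamins, the alcohol-soluble storage proteins of the rice endosperm, and LTPL16 (LOC_Os01g60740), of the protease inhibitor, seed storage and lipid transfer protein family. PROLM11 (LOC_Os05g26460) had 66.4, 69.2 and 60.7 FPKM in the AZ and 6.14, 4.25 and 3.37 in the NAZ, a difference of 3.85 ± 0.17. PROLM19, PROLM1, PROLM14, PROLM20 and PROLM16 followed at 3.63, 3.58, 3.47, 3.44 and 3.35. None of these had overlapping libraries. LTPL16 had 12.3, 11.1 and 11.5 FPKM against 1.32, 0.367 and 1.22. In DZ129 the 6 prolamins and LTPL16 differed between the tissues by 0.13 to 0.98. None was called there, which follows from the table, since it left out loci called between the DZ129 tissues.

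The strongest fall among the annotated genes was that of LOC_Os09g19400, annotated as a senescence-induced receptor-like serine/threonine-protein kinase. It had 12.1, 12.1 and 13.1 FPKM in the NAZ and 0.0478, 0.284 and 0.278 in the AZ, where the libraries held 1 to 6 reads. The difference was -5.49 ± 0.33 (adjusted p = 1.55e-07, limma), and no AZ library came near a NAZ library. Next was the laccase LOC_Os01g63180, of a family of oxidases that polymerize lignin precursors. Its FPKM were 83.8, 83.5 and 86.7 in the NAZ and 5.55, 4.73 and 4.75 in the AZ, 16.6-fold lower (-4.06 ± 0.07, adjusted p = 3.51e-11, limma). It was also called lower in the AZ of DZ129, by -3.17, from 12.8 ± 1.63 to 1.34 ± 0.25 FPKM (SD, n = 3).

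The other 8 were largely kinases and enzymes whose transcripts were near the floor in both DZ129 tissues. LOC_Os07g34850, an aspartic proteinase of the nepenthesin type, had 10.9, 10.4 and 10.9 FPKM in the NAZ and 0.635, 0.696 and 0.520 in the AZ. The inactive receptor kinase LOC_Os05g33160 had 32.9, 34.5 and 31.4 against 2.56, 2.44 and 3.22. LOC_Os04g27060, of the aldo/keto reductase family, fell 9.66-fold, from 109 ± 3.01 to 11.2 ± 0.21 FPKM (SD, n = 3). All 3 were under 1 FPKM on average in DZ129AZ and DZ129NAZ, and so were the cytochrome P450 LOC_Os07g11970 (-3.35), the kinase LOC_Os10g05250 (-2.91), LOC_Os04g11780, annotated as resistance protein LR10 (-2.62), and the leucine-rich LOC_Os02g40130 (-2.49). The wall-associated kinase OsWAK60 (LOC_Os04g30240), of a family that spans from the cell wall into the cell, was the exception. It went from 57.8 ± 2.22 to 5.75 ± 0.53 FPKM in W517 and stood at 21.7 ± 0.94 and 12.4 ± 0.34 in DZ129NAZ and DZ129AZ (SD, n = 3).

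**Figure D2:**
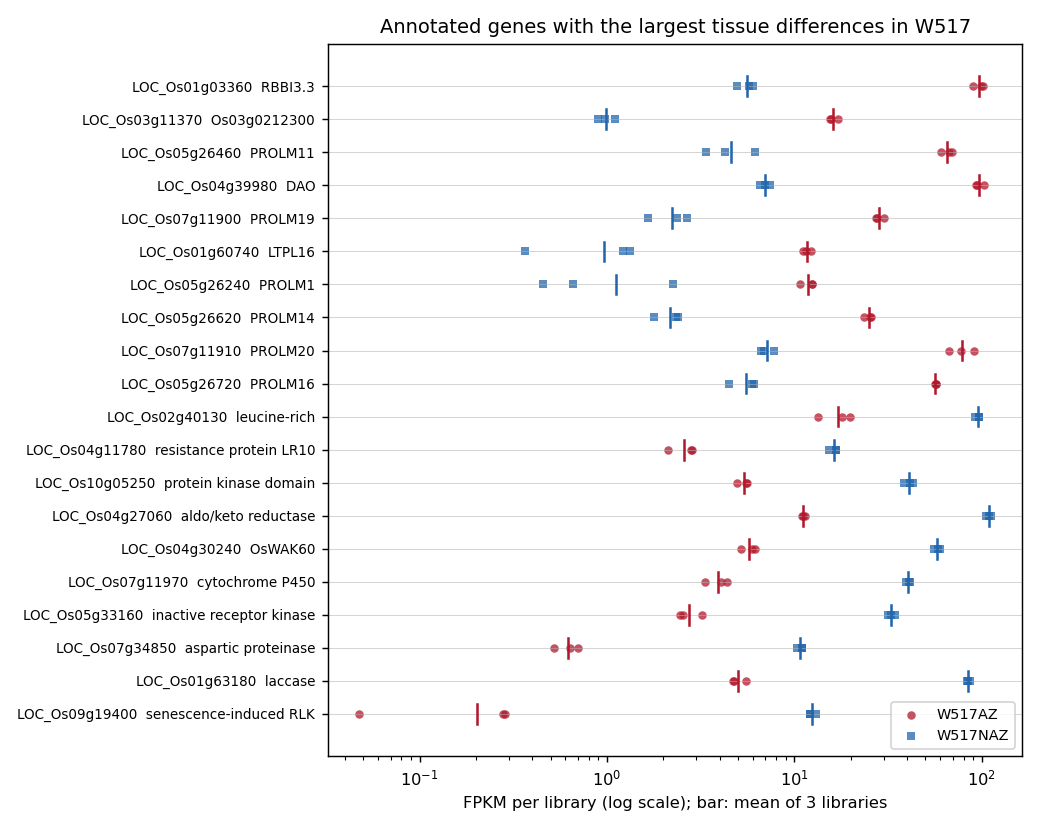
FPKM of each library (log axis) for the 10 highest and 10 lowest annotated genes; circles are the 3 W517AZ libraries, squares the 3 W517NAZ libraries and bars their means. The 2 tissues do not overlap in any of the 20 genes, which the naming rule required, and the spread is widest where a library held few reads, as in LOC_Os09g19400 and PROLM1.

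In each direction, the 2 largest changes among called genes of at least 10 FPKM without a name are given as well, since most called genes have none. LOC_Os11g10590 had 12.2, 10.7 and 8.80 FPKM in the AZ and 0.438, 0.208 and 0 in the NAZ, where no library held more than 2 reads, so that its fitted difference of 5.38 ± 0.50 depends on the pseudocount. LOC_Os03g48750 had 19.3, 19.1 and 19.3 FPKM against 0.751, 0.494 and 0.444, a difference of 4.89 ± 0.17. Both were also higher in the AZ of DZ129, by 4.23 and 5.15. In the other direction, LOC_Os01g74160 had 20.8, 21.4 and 19.98 FPKM in the NAZ and 0.154, 0.534 and 0.374 in the AZ (-5.62 ± 0.28). LOC_Os09g19380 had 13.5, 14.2 and 13.3 FPKM in the NAZ and 0.328, 0 and 0.255 in the AZ (-5.79 ± 0.45), where no library held more than 5 reads. Both were also called lower in the AZ of DZ129. LOC_Os01g74160 went there from 10.0 to 0.338 FPKM (-4.55), while LOC_Os09g19380 had at most 3 reads in any DZ129 library (-1.12).

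LOC_Os09g19380 is not alone at its place on chromosome 9. It is the middle of a run of 5 tested loci that follow each other in locus order, from LOC_Os09g18360 to LOC_Os09g19400, the receptor-like kinase above, and all 5 fell in the AZ, by -2.61 to -5.79. The tested loci directly beside the run, LOC_Os09g18320 and LOC_Os09g19560, differed by -0.17 each and were not called. The last 3 loci of the run had at most 6 reads in any DZ129 library, while LOC_Os09g19350 had 11.9 FPKM in DZ129AZ and 18.5 in DZ129NAZ against 0.0407 and 1.05 in W517. Over the genome there were 27 runs of at least 5 consecutive tested loci that rose and 18 that fell. The longest held 9 loci on chromosome 8 that fell, from LOC_Os08g07490 to LOC_Os08g07740, and among those that rose the longest held 8 loci, 1 on chromosome 7 from LOC_Os07g11310 to LOC_Os07g11650 and 1 on chromosome 10. Neighbouring genes can be copies of each other or overlap, and the counting of strand and of shared reads is not given in the sources used here.

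Storage protein genes of the grain rose together. All 14 tested prolamin and glutelin loci of the product table rose in the AZ, by 1.91 to 3.88 with a median of 3.33. The table was chosen on this contrast, and of its 845 tested loci 512 rose and 281 fell. The summed level of all 15 such loci of the table, tested or not, was 447 to 491 FPKM in W517AZ and 42.1 to 47.5 in W517NAZ. It was 1.93 to 3.81 in DZ129AZ and 1.12 to 1.62 in DZ129NAZ. For these loci of the table, the NAZ of W517 thus also held more transcripts than either tissue of DZ129. The glutelin GLUB5 (LOC_Os02g16820), outside the table, had 667, 610 and 637 FPKM in the AZ and 78.4, 67.4 and 71.1 in the NAZ. LOC_Os12g16890, whose gene line the table quotes for the prolamin PROLM23, had 3598, 4399 and 3088 FPKM against 572, 608 and 470. Unlike the 14, these abundant loci were present in DZ129, where LOC_Os12g16890 stood at 374 FPKM in the AZ and 120 in the NAZ and GLUB5 at 122 and 37.6. GLUB5 was thus lower in W517NAZ than in DZ129AZ, whereas LOC_Os12g16890 was higher.

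The storage transcripts are markers of the grain, and their share of the reads was highest in W517AZ. The 15 storage loci of the table and GLUB5 together took 0.134% to 0.144% of the reads in W517AZ, 0.0144% to 0.0163% in W517NAZ, 0.0193% to 0.0228% in DZ129AZ and 0.00630% to 0.00698% in DZ129NAZ. With LOC_Os12g16890 added, the shares were 0.362% to 0.455%, 0.0491% to 0.0588%, 0.0448% to 0.0515% and 0.01496% to 0.0160%. In DZ129 nearly all of these reads came from GLUB5 and LOC_Os12g16890, and 13 of the 14 tested loci of the table were not called between its tissues, which the choice of the table fixes. Of the 21 endosperm loci recalled as markers, 4 could be paired with a name, and these 4, which rose, are already counted among the storage and starch loci. How much of the AZ difference of other genes goes with grain tissue in the piece was not tested. Prolamins are near-identical copies, so the assignment of reads among them is uncertain, while their sum is less so.

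Starch genes moved with them. All 6 tested loci of the table for starch and its carbon supply, chosen on this contrast, rose, by 1.39 to 2.51. LOC_Os01g44220, a large subunit of ADP-glucose pyrophosphorylase (annotated as glucose-1-phosphate adenylyltransferase), which makes the glucosyl donor of starch, had 182, 182 and 179 FPKM in the AZ and 36.7, 29.5 and 29.4 in the NAZ. The 1,4-alpha-glucan-branching enzyme LOC_Os06g51084, which introduces the branches of starch, had 339, 346 and 348 FPKM against 81.9, 73.8 and 74.9. Neither overlapped between the tissues. A beta-amylase, LOC_Os07g47120, which breaks starch down, rose too but stood at only 1.08 to 1.48 FPKM in the AZ. The sum of the 6 was 1398 to 1405 FPKM in W517AZ and 353 to 389 in W517NAZ, and 308 to 325 and 263 to 273 in the AZ and NAZ of DZ129. W517NAZ lay above both DZ129 tissues here as well.

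**Figure D3:**
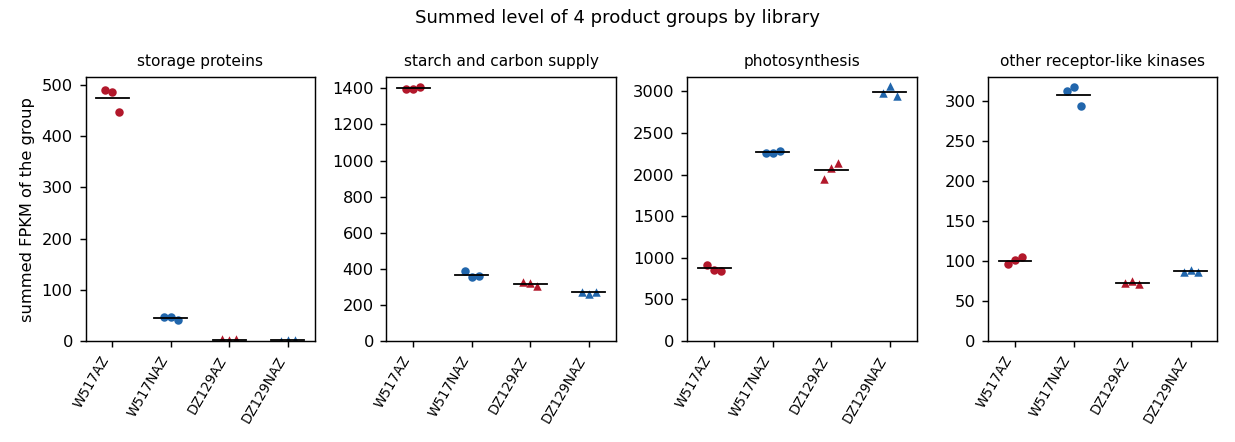
Summed FPKM of all table loci of 4 product groups, tested or not, in each library. Circles mark W517, triangles DZ129, red AZ and blue NAZ, with a bar at the mean of 3 libraries. Storage proteins reach 447 to 491 FPKM in W517AZ and stay below 4 in DZ129, while the photosynthesis sum is lowest in W517AZ. The loci were chosen by the study for calls between the W517 tissues but not between those of DZ129.

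Small secreted proteins of the product table were called higher in the AZ. All 5 tested lipid transfer proteins, which carry lipids outside the cell, and all 7 tested thionins and defensins, small cysteine-rich antimicrobial peptides, were called higher, with medians of 2.58 and 3.60. Their levels were low: the summed FPKM of all 11 thionins and defensins of the table, tested or not, were 27.5 to 30.7 in W517AZ and 1.95 to 3.77 in W517NAZ. LTPL165 (LOC_Os07g12090) had 12.8, 11.9 and 11.97 FPKM in the AZ and 0.964, 1.10 and 1.30 in the NAZ. The defensin DEF1 (LOC_Os01g70680) had 4.10, 3.57 and 4.30 FPKM against 0, 0.173 and 0, which was 22 to 27 reads against at most 1. DEFL78 (LOC_Os02g07440) had 2.16, 2.14 and 2.10 FPKM in the AZ and no read in the NAZ, at least 2.96-fold higher when 3 reads per library are taken as the floor. The thionin THION18 (LOC_Os01g41140) rose by 3.88 ± 0.34. DEF1, DEFL78 and THION18 met the expression rule only through the AZ libraries, so they could hardly be called lower. The table was also chosen on this contrast, and of its 845 tested loci 512 rose and 281 fell.

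Genes for cell wall proteins and enzymes went mostly up, at low levels. Of 20 tested, 16 rose and 4 fell, with a median of 2.24. The glycosyl hydrolase of family 17 LOC_Os06g04080, of a family of beta-1,3-glucanases, had 1.86, 1.80 and 1.81 FPKM in the AZ and 0.0839, 0.0532 and 0.0807 in the NAZ. A second laccase, LOC_Os01g62480, had 3.34, 4.14 and 4.58 FPKM against 0.394, 0.241 and 0.244, the opposite of LOC_Os01g63180. LOC_Os03g01800, of glycosyl hydrolase family 16, which includes enzymes that cut and rejoin xyloglucan, rose by 3.23 ± 0.49. The cellulose synthase-like gene CSLE1 (LOC_Os09g30120) fell from 7.41, 5.48 and 5.66 FPKM to 0.977, 1.36 and 1.13. The summed level of all 28 such loci of the table, tested or not, did not follow the count. It was 57.3 to 60.4 FPKM in the AZ and 64.3 to 66.7 in the NAZ, and the most abundant tested member was among those that fell. The laccase LOC_Os01g63180, also called in DZ129, is not in this group or its sum. Its mean went from 84.7 FPKM in the NAZ, above the sum of the whole group there, to 5.01 in the AZ. The glycosyl hydrolase LOC_Os03g14210, also outside the group, went from 0.213 to 1.10 FPKM. With a pseudocount of 1, 7 of the 20 were called higher and 1 lower, and with quantile normalization 12 and 3, and 1 member then had the other sign.

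Peroxidases, which can cross-link wall polymers and lignin precursors, split, with 3 of 5 higher and 2 lower, and 1 and 1 with a pseudocount of 1. LOC_Os05g14260 had 13.0, 13.6 and 11.5 FPKM in the AZ and 1.20, 1.74 and 0.727 in the NAZ, whereas LOC_Os06g32990 had 0.914, 0.944 and 0.740 against 4.02, 4.70 and 4.27. Enzymes of flavonoid synthesis and of the cinnamoyl-CoA step that leads to lignin precursors did not split. All 7 tested loci of the table, chosen on this contrast, fell, by -1.25 to -2.31. The sum of all 8 such loci of the table was 11.9 to 14.2 FPKM in the AZ and 39.0 to 41.5 in the NAZ. Among them, the dihydroflavonol-4-reductase LOC_Os02g56690 fell by -2.31 ± 0.36, the cinnamoyl-CoA reductase LOC_Os08g17500 by -2.09 ± 0.27 and the flavonol synthase/flavanone 3-hydroxylase LOC_Os06g08032 by -2.01 ± 0.26. These 3 stood at no more than 5.11 FPKM in any W517 library. With a pseudocount of 1, 4 of the 7 were called, and LOC_Os02g56690 (-0.87) was not among them.

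The study singled out 3 loci near its association peaks for shattering on chromosomes 1 and 3, and their expression in these libraries was part of the choice. It also drew on genome-wide association, haplotypes of cultivars and qRT-PCR, and it settled on LOC_Os01g63180 and LOC_Os03g14210 as candidate genes. The first of these is the laccase described above. LOC_Os01g63260, annotated as a steroid dehydrogenase of a type that acts in brassinosteroid synthesis, had 2.09, 1.81 and 2.91 FPKM in the AZ and 0.290, 0.619 and 0.487 in the NAZ (2.08 ± 0.28, adjusted p = 6.33e-05, limma). LOC_Os03g14210, a glycosyl hydrolase of family 17, had 1.19, 1.04 and 1.07 FPKM against 0.133, 0.189 and 0.319, or 35 to 40 reads against 4 to 10. It was called higher (1.98 ± 0.28), but not with a pseudocount of 1 or with quantile normalization. Of 10 loci recalled as known shattering genes, only LOC_Os04g57530 could be paired, with the product transcription factor. It had 1.03, 0.944 and 0.848 FPKM in the AZ and 0.353, 0.126 and 0.0424 in the NAZ, with 22 to 26 reads against 1 to 8. Its difference was 2.09 ± 0.40 (adjusted p = 0.000854, limma), and it was not called with a pseudocount of 1, where it was 0.73.

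Hormone genes are listed by hormone, and differences between hormones were not tested. Of the 845 tested loci of the whole table, 512 were higher and 281 lower. For auxin, which delays abscission while it flows through the zone, 7 of 8 rose and 1 fell. The Aux/IAA repressors OsIAA4 (LOC_Os01g18360), OsIAA11 (LOC_Os03g43400) and OsIAA9 (LOC_Os02g56120) rose by 3.16, 2.51 and 2.01. OsIAA4 had 4.33, 5.07 and 5.23 FPKM in the AZ and 0.703, 0.390 and 0.338 in the NAZ. The gene that fell, LOC_Os02g01326, is annotated as auxin-induced protein 5NG4 and was the most abundant of the 8 in the NAZ, with 33.7, 40.7 and 42.5 FPKM against 10.3, 9.41 and 12.02 in the AZ.

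For cytokinin, 4 of 6 rose and 1 fell. The glucosyltransferases, which inactivate cytokinins by adding a sugar, went both ways although they carry the same annotation. LOC_Os02g51930 had 9.95, 8.34 and 8.21 FPKM in the AZ and 0.902, 0.476 and 0.514 in the NAZ, while LOC_Os02g51910 had 2.08, 2.39 and 2.74 against 5.72, 6.58 and 6.92. The response regulator LOC_Os04g28130 rose by 3.22 ± 0.28. For ethylene, which promotes abscission, 4 of 6 rose and 1 fell, but 1 and 2 with quantile normalization and 1 and 1 with a pseudocount of 1. The summed level of all 8 ethylene loci of the table, tested or not, was lower in the AZ, at 16.9 to 19.3 FPKM against 22.1 to 22.9 in the NAZ. LOC_Os05g05670, annotated as 1-aminocyclopropane-1-carboxylate oxidase, the enzyme of the last step of ethylene synthesis, had 3.28, 2.02 and 2.95 FPKM in the AZ and 0.578, 0.549 and 1.37 in the NAZ. The oxidase homologs LOC_Os08g30150 and LOC_Os03g64280 went in opposite directions, by 1.81 and -1.48. Of 3 gibberellin genes, the deactivating gibberellin 2-beta-dioxygenase 1 (LOC_Os05g11810) rose by 1.80 ± 0.20. Gibberellin 2-beta-dioxygenase 7 (LOC_Os02g41954) fell by -1.96 ± 0.28. The receptor-like gene GID1L2 (LOC_Os08g37050) was called at -1.01 ± 0.27 but lost its call without AZ replicate 1 (-0.96), AZ replicate 3 (-0.94) or NAZ replicate 2 (-0.85).

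Genes of cell division and chromatin rose throughout. All 17 tested loci of the table, chosen on this contrast, were called higher, by 1.19 to 2.53 with a median of 1.64. The tubulin family gene LOC_Os03g44420 had 14.1, 14.8 and 14.4 FPKM in the AZ and 3.68, 3.17 and 3.92 in the NAZ. POLA3 (LOC_Os07g22400), a subunit of the DNA polymerase alpha complex that primes replication, had 4.33, 3.93 and 3.63 against 0.815, 0.878 and 0.862. A core histone gene, LOC_Os03g06670, rose by 2.53 ± 0.52 from levels of at most 6 reads. Outside the table, the B-type cyclin CYCB2-1 (LOC_Os04g47580), which acts at mitosis, rose by 1.87 ± 0.33 but stood below 1 FPKM. These calls are sensitive to how low levels are treated, since 6 of the 17 were called with a pseudocount of 1 and 6 with quantile normalization, with no member changing sign.

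Transcription factor families and F-box proteins, the substrate receptors of ubiquitin ligases, leaned the same way by count. Of 42 transcription factors, 31 rose and 9 fell, and of 18 F-box proteins 15 rose and 2 fell. The whole table leaned upward too, with 512 of its 845 tested loci higher and 281 lower. The C2H2 zinc finger gene ZOS5-09 (LOC_Os05g38600) had 7.01, 6.55 and 4.48 FPKM in the AZ and 0.779, 0.317 and 0.535 in the NAZ. The MYB gene LOC_Os01g43180 and the bZIP gene LOC_Os06g42690 rose by 3.30 and 3.25 from almost no reads. The B-box zinc finger gene LOC_Os04g45690 had the largest fall among the factors, from 28.9, 27.3 and 25.3 FPKM to 9.47, 8.58 and 8.29. Among the F-box genes, OsFBX282 (LOC_Os08g16860) rose by 2.97 ± 0.29 and OsFBX148 (LOC_Os04g48270) fell by -1.96 ± 0.08. With a pseudocount of 1 the factors counted 14 and 5, and the F-box genes 3 and 2. With quantile normalization these counts were 20 and 11, and 7 and 3. The summed level of all 25 F-box loci of the table, tested or not, was lower in the AZ. It was 31.0 to 33.1 FPKM against 34.4 to 36.9 in the NAZ. That of all 54 factors was higher, at 199 to 205 FPKM against 161 to 168.

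All 8 heat shock genes of the table, chosen on this contrast and encoding chaperones, rose, by 1.05 to 2.24. With a pseudocount of 1, 4 of them were called, and 5 with quantile normalization. The small hsp20 genes LOC_Os05g51440 and LOC_Os03g45340 rose by 2.24 and 2.02 from below 0.5 FPKM in every NAZ library. The summed level was 204 to 208 FPKM in the AZ and 84.4 to 84.9 in the NAZ, most of it from BIP1 (LOC_Os02g02410), a chaperone of the endoplasmic reticulum, at 184 and 77.6 FPKM. BIP1 falls outside the naming rule and is given because it makes up this sum. Outside the table, the heat shock gene HSP81-2 (LOC_Os09g30418) differed by -0.11 ± 0.27 and was not called. Of 11 proteases, 8 rose and 3 fell, and 2 and 3 were called with a pseudocount of 1. The summed level of all 12 of the table, tested or not, was lower in the AZ. It was 17.2 to 17.9 FPKM against 22.1 to 23.5 in the NAZ. The serine carboxypeptidases OsSCP13 (LOC_Os03g26930) and OsSCP16 (LOC_Os03g27530) rose by 3.50 and 3.22, the former from 0.225, 0.336 and 0.185 FPKM to 3.61, 4.12 and 3.62.

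Photosynthesis genes all fell in the AZ. The 12 tested were called lower by -1.03 to -1.70 with a median of -1.37, and their summed level was 846 to 918 FPKM in W517AZ and 2257 to 2282 in W517NAZ. The chlorophyll A-B binding protein LOC_Os01g64960, of the light-harvesting antenna, had 47.6, 39.3 and 43.0 FPKM in the AZ and 136, 140 and 137 in the NAZ. The photosystem II 5 kDa protein LOC_Os02g37060 had 19.7, 17.2 and 13.6 against 53.8, 54.6 and 53.9. In DZ129 the same sum was 1950 to 2140 FPKM in the AZ and 2937 to 3059 in the NAZ, and none of the 12 was called there, as the choice of the table required, while their median difference was -0.57. All 12 passed the interaction test described below, as did 44.5% of all genes tested. Because the table was chosen for calls in W517 but not in DZ129, this is no independent evidence of a difference between the cultivars. Of the loci with the GO term thylakoid, 25 of 30 fell and 4 rose.

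Loci named as ribosomal proteins fell as well. There were 4 such loci in the table, and they differed by -1.48 to -1.74, while of the 4 loci with the pathway term Ribosome 3 fell and 1 rose. Ribosomal protein L4 (LOC_Os03g15870) had 17.2, 19.1 and 19.3 FPKM in the AZ and 59.3, 62.1 and 64.7 in the NAZ, and S10/S20 (LOC_Os03g10060) had 29.6, 31.4 and 30.3 against 85.7, 90.8 and 88.7. The nitrogen genes divided, with 2 of 4 lower and 1 higher. The high affinity nitrate transporter LOC_Os04g40410 fell by -1.92 ± 0.08 and the ferredoxin-nitrite reductase LOC_Os01g25484, which makes ammonium from nitrite in plastids, had 6.67, 6.91 and 6.75 FPKM against 24.9, 25.4 and 25.0. The nitrate reductase LOC_Os02g53130, of the step before it, went the other way, at 16.1, 14.9 and 15.7 FPKM in the AZ and 4.01, 4.21 and 4.26 in the NAZ.

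Receptor kinases and resistance-type proteins, which sense signals and pathogens at the cell surface and inside the cell, were mostly lower in the AZ. Of 8 wall-associated kinases, 5 fell and 1 rose. Of 29 other receptor-like kinases, 19 fell and 6 rose, and of 12 resistance-type proteins 8 fell and 4 rose. With a pseudocount of 1, the wall-associated kinases counted 4 lower and 0 higher and the resistance-type proteins 4 lower and 1 higher, and with quantile normalization the latter counted 8 and 1. OsWAK24 (LOC_Os02g56630) had 4.73, 5.27 and 4.87 FPKM in the NAZ and 0.298, 0.409 and 0.245 in the AZ. OsWAK70 (LOC_Os07g31210) had 0.262, 0.276 and 0.252 FPKM in the NAZ and 1.65, 1.48 and 1.37 in the AZ, the 1 member of its family that rose, though not with a pseudocount of 1 (0.98). The leucine-rich repeat kinase LOC_Os10g02990 fell by -3.60 ± 0.21, and LOC_Os02g43250 rose by 2.86 ± 0.18. All 39 other receptor-like kinases of the table, tested or not, summed to 95.8 to 105 FPKM in W517AZ and 293 to 317 in W517NAZ. In the AZ and NAZ of DZ129 they summed to 71.5 to 75.4 and 85.8 to 89.2. The sum was thus highest in W517NAZ. A gap between the W517 tissues beside a small one in DZ129 follows from how the table was chosen. The disease resistance genes LOC_Os04g11760 and LOC_Os08g14800 marked the ends of their group, at -3.06 and 1.99, and the call of the latter was lost with a pseudocount of 1 and with quantile normalization.

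Cytochromes P450, oxidases of hormones and defence compounds, divided, with 6 of 13 higher and 7 lower. With quantile normalization 3 were higher and 7 lower, and with a pseudocount of 1 these counts were 3 and 6. LOC_Os02g09310 had 7.06, 8.09 and 7.64 FPKM in the AZ and 0.935, 0.927 and 0.586 in the NAZ, and it lay in a run of 5 loci that all rose. LOC_Os05g12040, annotated as P450 51, a family that acts in sterol synthesis, rose by 2.87 ± 0.17.

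**Figure D4:**
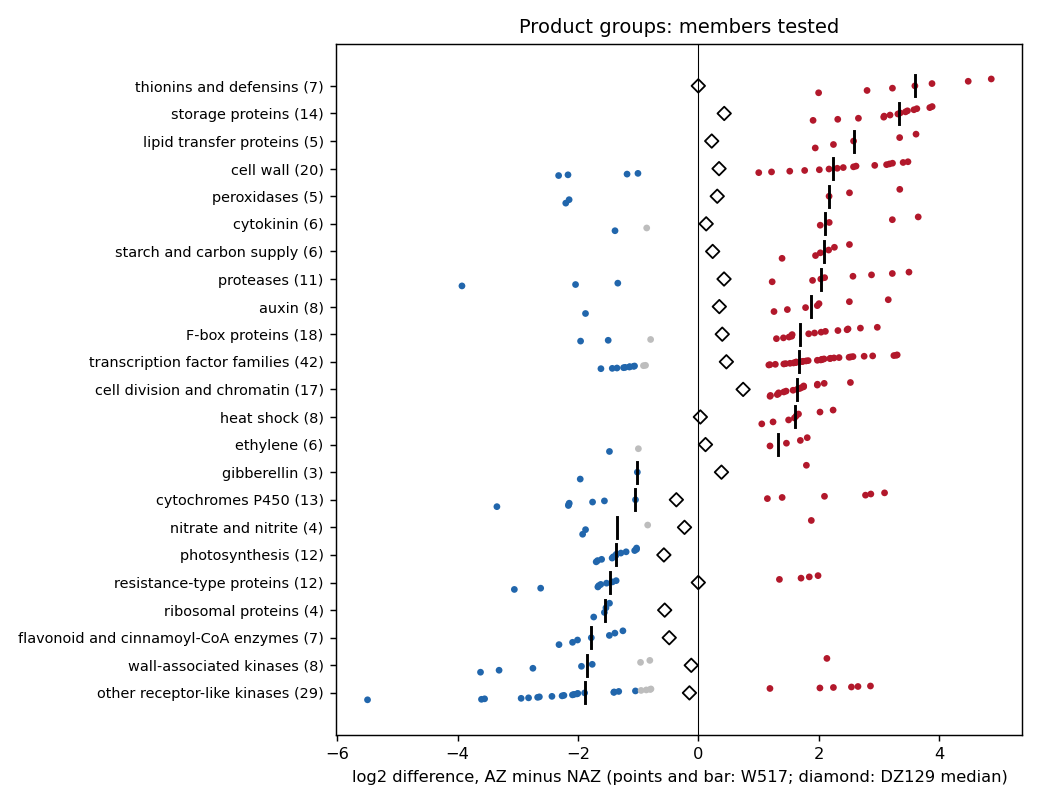
Log2 differences between W517AZ and W517NAZ of the tested members of 23 product groups (number in brackets), ordered by the W517 median; red points rose, blue points fell and grey points were not called, the black bar is the W517 median and the open diamond the DZ129 median. Thionins, defensins and storage proteins lie highest, receptor-like and wall-associated kinases lowest, and the DZ129 medians stay between -0.57 and 0.74, partly because the table left out genes called in DZ129.

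Of the 32 loci named only through gene lines quoted in the product table, 15 rose and 4 fell, beside 21.9% and 13.3% of all genes tested. The table was itself chosen on this contrast, and these loci were picked after values were seen. Among those that rose were CYP714B1 (LOC_Os07g48330), a gibberellin 13-oxidase, with 58.5, 52.6 and 57.1 FPKM in the AZ and 12.8, 10.8 and 11.0 in the NAZ, and the pyruvate, phosphate dikinase PPDK2 (LOC_Os03g31750) at 2.72 ± 0.12. The cysteine synthase RCS3 (LOC_Os03g53650) had 60.2, 60.6 and 60.03 FPKM against 24.3, 25.3 and 24.0. The zinc transporter ZIP3 (LOC_Os04g52310) and OPR1 (LOC_Os06g11290), a 12-oxophytodienoate reductase, rose by 2.06 and 1.25 at less than 5 FPKM, but were not called with a pseudocount of 1 (0.91 each), nor was OPR1 with quantile normalization (0.71).

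The 4 that fell were a phospholipase, a potassium transporter and a pair of P450s. The phospholipase PLD1 (LOC_Os01g07760) had 141, 141 and 137 FPKM in the NAZ and 61.2, 61.4 and 64.8 in the AZ. The potassium transporter HAK27 (LOC_Os03g37830) fell by -2.12 ± 0.09. CYP71Z7 (LOC_Os02g36190) and CYP76M6 (LOC_Os02g36280), oxidases of diterpenoid defence compounds whose loci lie near each other on chromosome 2, fell by -2.31 ± 0.05 and -1.66 ± 0.14, and CYP71Z7 went from 89.3, 89.0 and 93.5 FPKM to 19.5, 17.5 and 17.6. Genes not called included MADS51 (LOC_Os01g69850), a MADS-box flowering gene, at 80.8, 74.5 and 75.1 FPKM in the AZ and 75.2, 72.4 and 71.6 in the NAZ, and the calcineurin B-like gene CBL1 (LOC_Os10g41510), whose difference was 0.43 ± 0.05.

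The tissues of DZ129 were compared in the same way. The comparisons of the cultivars use separate libraries. Over the same genes, 26.2% were called between the tissues of DZ129, 17.3% higher and 8.87% lower in the AZ. These genes were those expressed in W517. Some had no reads in DZ129 and could not be called there, and genes expressed only in DZ129 were left out. The shares of the cultivars are therefore not on an equal footing. Of the genes called in W517, 3155 were called higher and 1483 lower in both cultivars, which is 61.3% of the W517 calls and 82.4% of the DZ129 calls. Only 22 genes were higher in the AZ of W517 and lower in that of DZ129, and 20 the reverse. Across genes, the differences of both cultivars correlated at r = 0.84, as a description, since genes are not independent. The tissue difference itself differed between the cultivars (limma interaction test over 12 libraries, adjusted p below 0.05) for 44.5% of the genes. It was more positive in W517 for 4663 genes and more negative for 4896.

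The named extremes illustrate both kinds. LOC_Os03g11370 and LOC_Os03g48750 had interaction values of 0.10 (adjusted p = 0.684) and -0.26 (adjusted p = 0.559) by limma. RBBI3.3 was more sharply set apart in DZ129, where it reached 198 ± 69.0 FPKM in the AZ and 4.74 ± 0.73 in the NAZ (SD, n = 3), and its interaction value was -1.21. The prolamin PROLM19 had 3.43, and the kinase LOC_Os09g19400 had -5.32. For most of the strongest falls DZ129 had almost no reads in either tissue, so that no fall could be measured in it.

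**Figure D5:**
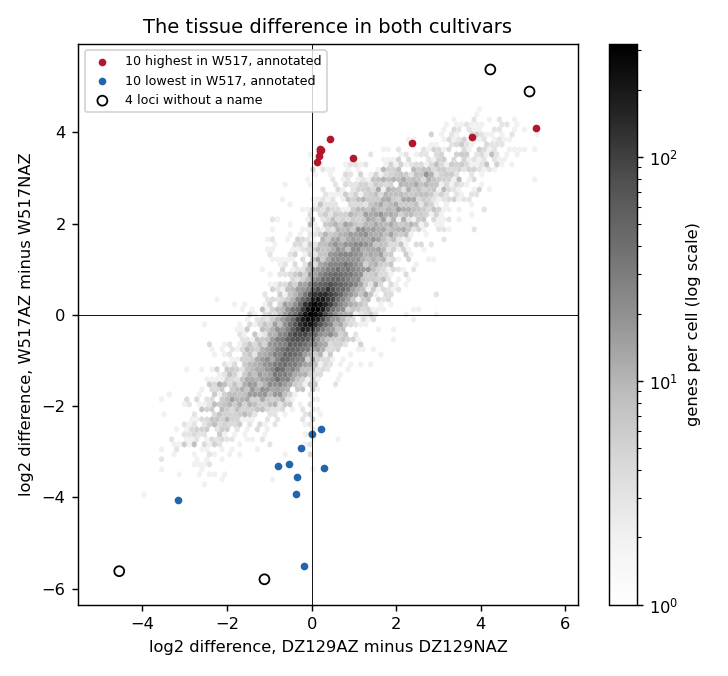
Log2 AZ minus NAZ differences of the 21485 genes in DZ129 (horizontal) and W517 (vertical), as counts of genes per cell on a log grey scale. Most genes lie along a rising band (r = 0.84 across genes), while most of the 10 highest (red) and 10 lowest (blue) annotated genes lie near a DZ129 difference of 0 and the 4 loci without a name (circles) lie at the ends.

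The calls were spread over the genome. The share of tested genes called was 32.3% to 38.7% on the 12 chromosomes, with the lowest on chromosome 12 and the highest on chromosome 10. Among the GO terms of the product table, 41 of 49 loci with DNA binding and 43 of 53 with nucleus rose and 4 and 6 fell, whereas 63 of 101 loci with plastid fell and 30 rose. Of 24 loci with the term cell wall, 20 rose and 3 fell. Kinase activity was divided, with 25 of 64 higher and 33 lower. Of all 845 tested loci of the table, 512 rose and 281 fell.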

How the data were processed

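RNA of 12 libraries was measured, and the 6 of W517 were tested. The deposited values are FPKM computed by the authors, who trimmed reads with Trimmomatic, mapped them to MSU-RGAP with HISAT2, and used Cufflinks and HTSeq. The FPKM normalize for gene length and library total. Log2(FPKM + 0.1) was tested with limma 3.58.1 (limma-trend, two-sided, Benjamini-Hochberg) in R 4.3.3, on genes with at least 0.5 FPKM in 3 of 6 libraries, without a replicate block. A fold change on this scale understates the change of low genes. A gene was called where its fold change exceeded 2 and its adjusted p was below 0.05. The interaction was fitted over all 12 libraries. Whole reads were recovered from the steps of the FPKM and used for depth, floors and a voom alternative. The procedure was tested on simulated data.

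Groups followed the sample labels. The members and lists were chosen with earlier results of these data known. Named were loci of the study's text, the 10 highest and 10 lowest annotated genes (called, libraries apart, at least 10 FPKM in the higher tissue), the 3 largest changes per list and at least 1 in each direction, and 2 loci without a name in each direction. Because the sources pair 24 of 332 recalled loci with a name, the product groups were built from the readable part of the study's product table, and they and the loci named through its gene lines were chosen after values were seen. Alternatives changed 1 choice at a time: the pseudocount (0.5 or 1), the filter (none, or 1 FPKM), the scaling (median-ratio or quantile), the model (all 12 libraries, the replicate block, or voom on recovered reads), and each library in turn was left out. No sequences or coordinates were used, and 1 locus is not reported here. Tables were made in Python 3.11.15 (pandas 2.3.3, numpy 2.4.6, scipy 1.17.1) and plots in matplotlib 3.10.9.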

Additional observations from a re-analysis of the deposited data

Results flagged for a closer look

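Of 28 loci examined singly (those of the study's text, the 10 highest and 10 lowest annotated genes, the known shattering list and the 4 loci without a name), 24 had a tissue difference that was not the same in W517 and DZ129 by the limma interaction test over 12 libraries, at an adjusted p below 0.05. The values given are the W517 difference (AZ minus NAZ, log2) less that of DZ129, and 44.5% of all genes tested and 103 of all 123 named loci passed the same test. The loci of the product table were chosen by the study partly for this contrast between cultivars, so their values describe them and are no independent evidence. The highest and lowest genes, the loci without a name and the largest changes per list were picked here by the W517 difference. That difference is part of the value, so a larger share of passes than among all genes follows from the choice.

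Storage protein genes had large positive values. The 6 prolamins stayed below 0.5 FPKM on average in both DZ129 tissues, so their values largely restate the rise in W517. They were 3.41 for PROLM11 (LOC_Os05g26460), 3.43 for PROLM19 (LOC_Os07g11900), 3.39 for PROLM1 (LOC_Os05g26240), 3.29 for PROLM14 (LOC_Os05g26620), 2.46 for PROLM20 (LOC_Os07g11910) and 3.22 for PROLM16 (LOC_Os05g26720). LTPL16 (LOC_Os01g60740) had 3.39. The auxin oxidase DAO (LOC_Os04g39980) had 1.39, the transcription factor LOC_Os04g57530 had 1.44 and the steroid dehydrogenase LOC_Os01g63260 had 0.85. LOC_Os04g57530 averaged only 0.0780 FPKM in DZ129AZ and 0.0128 in DZ129NAZ, so its value largely restates the rise in W517.

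Negative values, a fall larger in W517, were found for the kinases LOC_Os09g19400 (-5.32), LOC_Os05g33160 (-3.20), OsWAK60 or LOC_Os04g30240 (-2.51) and LOC_Os10g05250 (-2.67). They were also found for the P450 LOC_Os07g11970 (-3.63), the proteinase LOC_Os07g34850 (-3.57), the aldo/keto reductase LOC_Os04g27060 (-2.75), the leucine-rich LOC_Os02g40130 (-2.71), LOC_Os04g11780 (-2.62) and the unnamed LOC_Os09g19380 (-4.68) and LOC_Os01g74160 (-1.07). For LOC_Os09g19400, LOC_Os05g33160, LOC_Os04g11780, LOC_Os07g34850, LOC_Os07g11970, LOC_Os10g05250, LOC_Os02g40130 and LOC_Os09g19380, DZ129 had almost no reads in either tissue, so the value restates the fall in W517. The laccase LOC_Os01g63180 had -0.89 and actin, LOC_Os01g71770, had -0.22. RBBI3.3 (LOC_Os01g03360) had -1.21, a rise that was larger in DZ129.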

How the results depend on the processing

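The counts of called genes stayed within 1.5 times of 7566 under every alternative run, from 5579 with a pseudocount of 1 to 9156 without a filter. With the replicate block 7579 genes were called (4716 higher, 2863 lower) in W517 and 9355 in the interaction. Deviations of libraries with the same number correlated at 0.01, 0.01 and -0.02, so the numbers were not taken as pairs. Leaving out each library in turn gave 7528 to 7570 called genes, 4682 to 4720 higher and 2834 to 2871 lower, and 8855 to 9413 in the interaction. Voom on recovered reads called 7710.

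Of 1833 values of the 123 named genes under these alternatives, 1793 kept their call, 35 in 22 genes lost it, mostly with a pseudocount of 1 or quantile normalization, and 5 turned their sign. All 5 belong to genes not called in the first place. With median-ratio scaling they were LOC_Os02g38804 (-0.0451), LOC_Os04g26910 (-0.0750) and MADS51 or LOC_Os01g69850 (-0.0560). With quantile normalization it was CSLC7 or LOC_Os05g43530 (-0.26), and HSP81-2 or LOC_Os09g30418 ranged from -0.36 to 0.27 when a library was left out, with 0.27 without NAZ replicate 1. Genes below 1 FPKM rest on few reads, which limits the precision of their values.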
